A study of Mus musculus with 4 samples.

Results

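The genes of the urea cycle and of ammonia entry into it were examined in livers of mice labelled as Fto knockout and wildtype. The 9 genes, Cps1, Otc, Ass1, Asl, Arg1, Nags, Slc25a15, Slc25a13 and Glud1, were chosen by symbol as the enzymes and carriers of the pathway, out of 37315 gene identifiers in the deposited count files, and all 9 were among the 13836 genes with enough reads to test. RNA-seq was done on polyadenylated RNA from liver of C57BL/6 mice aged 23 weeks, with 2 Fto knockout (KO) and 2 wildtype (WT) libraries. The labels name no allele, promoter, sex or diet, and do not say whether each library came from its own animal. A p-value here weighs a difference against the scatter of these libraries, which may be technical scatter. The comparison of KO with WT asks which liver transcripts differ with the Fto genotype named in the labels. The product of Fto is an RNA demethylase.

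The urea cycle turns ammonia, which is toxic, into urea, and runs in full only in the liver, mainly in hepatocytes around the portal vein. Glutamate dehydrogenase releases ammonia from glutamate inside the mitochondrion. Carbamoyl phosphate synthetase joins it to bicarbonate there, and ornithine transcarbamylase makes citrulline, which leaves for the cytosol. The cytosolic enzymes then add nitrogen from aspartate, split off fumarate, and release urea and ornithine, which returns to the mitochondrion.

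Of the 9 genes, Cps1 had the largest difference and was 1.67 times as high in KO as in WT, but it missed the threshold over all genes. Glud1 was next, at 0.754 of the WT level. The other 7 genes differed by less than 0.2 on the log2 scale. None of the 9 was called by edgeR's quasi-likelihood test (adjusted p under 0.05 over all genes), where 1.91% of tested genes were called (0.961% higher and 0.947% lower in KO), nor by limma-voom. With DESeq2 1 of the 9 was called, Cps1, among 4.15% of all genes (2.05% higher and 2.10% lower). Without a filter on low counts edgeR also called Cps1, among 3.70% of all genes (1.94% higher and 1.76% lower). At an unadjusted p under 0.05 there was 1 of the 9, against 13.0% of all tested genes. A set of 9 genes is too small to tell whether its share departs from that of all genes. Their median log2 fold change was -0.04 and that of all tested genes 0.01.

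The libraries held 44689114 and 40947808 counts in KO and 41332870 and 39549592 in WT, so that 1 read was between 0.0224 and 0.0253 counts-per-million (CPM). Fto itself was at 13.1 and 12.1 CPM in KO and at 41.2 and 33.9 CPM in WT, a log2 fold change of -1.57 (SE 0.195). The counts cover the whole gene and do not show which exons the remaining reads came from. Hepatocyte markers were abundant in every library, with Alb, which encodes albumin, at 58253 and 70110 CPM in KO and at 53495 and 64831 CPM in WT. In bulk tissue, fewer cells of a type and less RNA per cell cannot be told apart.

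Fto acts on N6-methyladenosine in RNA, a mark that is often placed in the sequence GGACT (written as DNA), so the coding parts of the 2 genes with the largest differences are shown here at each GGACT. The letters are those of the GENCODE M21 transcripts, written 5′ to 3′ on the coding strand, with GGACT in capitals and 10 bases on each side.
Cps1 site 1: agcgacagtgGGACTtctccagacc
Cps1 site 2: agacgaactgGGACTgaataagtac
Cps1 site 3: tggtagctgtGGACTgtgggataaa
Cps1 site 4: ggagtatgatGGACTtttgattgct
Cps1 site 5: aaaatgtttgGGACTgactgaagcc
Cps1 site 6: ctcttggggtGGACTtcattgacgt
Cps1 site 7: ctcgcactgtGGACTccaagagtct
Glud1 site 1: aatatgaaagGGACTctaactacca
The Cps1 sites lie on the plus strand of GRCm38, in exon 1 at chr1:67123251-67123255, exon 3 at chr1:67142974-67142978, exon 7 at chr1:67152329-67152333, exon 8 at chr1:67156193-67156197, exon 22 at chr1:67195219-67195223, exon 32 at chr1:67215472-67215476 and the last exon, 38, at chr1:67230292-67230296. The Glud1 site lies on the plus strand in exon 10 at chr14:34338861-34338865.

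The coding part of Cps1 held 7 matches in 4500 bases, or 1.56 per 1000 bases, which was above 68.6% of 12757 tested protein-coding genes. That of Glud1 held 1 in 1674 bases, or 0.597 per 1000 bases, which was above 29.9% of them. Asl had the highest density of the 9, with 2.87 per 1000 coding bases, and Ass1 had none in its coding part. The median of tested protein-coding genes was 1.08 per 1000 bases, and 77.2% of them held at least 1. Only this strand was searched. Methylation was not measured, and a match is a description of the letters, not of a methylated site.

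Cps1 (ENSMUSG00000025991, chromosome 1, 67123026 to 67231259, plus strand, 38 exons; positions here and below are GRCm38) encodes carbamoyl phosphate synthetase, which commits ammonia to the cycle. It was at 5340 and 5095 CPM in KO and at 3203 and 3047 CPM in WT. Both KO libraries were above both WT libraries, and the libraries of each genotype lay close together. The groups averaged 5217 ± 174 CPM in KO and 3125 ± 110 CPM in WT (SD, n = 2 each). The transcript took 0.552% and 0.498% of all counts in the KO libraries and 0.329% and 0.293% in the WT libraries.

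The log2 fold change of Cps1 was 0.74 (SE 0.168, 95% interval 0.35 to 1.13), and its adjusted p was 0.0821 with edgeR's quasi-likelihood test. It ranked 428 of 13836 genes by p. With libraries matched by replicate number, the log2 ratio of KO over WT was 0.74 for number 1 and 0.74 for number 2. This matching is arbitrary, as no pairing of KO with WT libraries is known. The likeness of these ratios is therefore no separate evidence of a difference. With DESeq2 the adjusted p was 0.0166, without a filter on low counts 0.0121, and with limma-voom 0.0747. Of 137 genes that averaged 1000 CPM or more, 4 had a higher log2 fold change than Cps1.

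**Figure D1:**
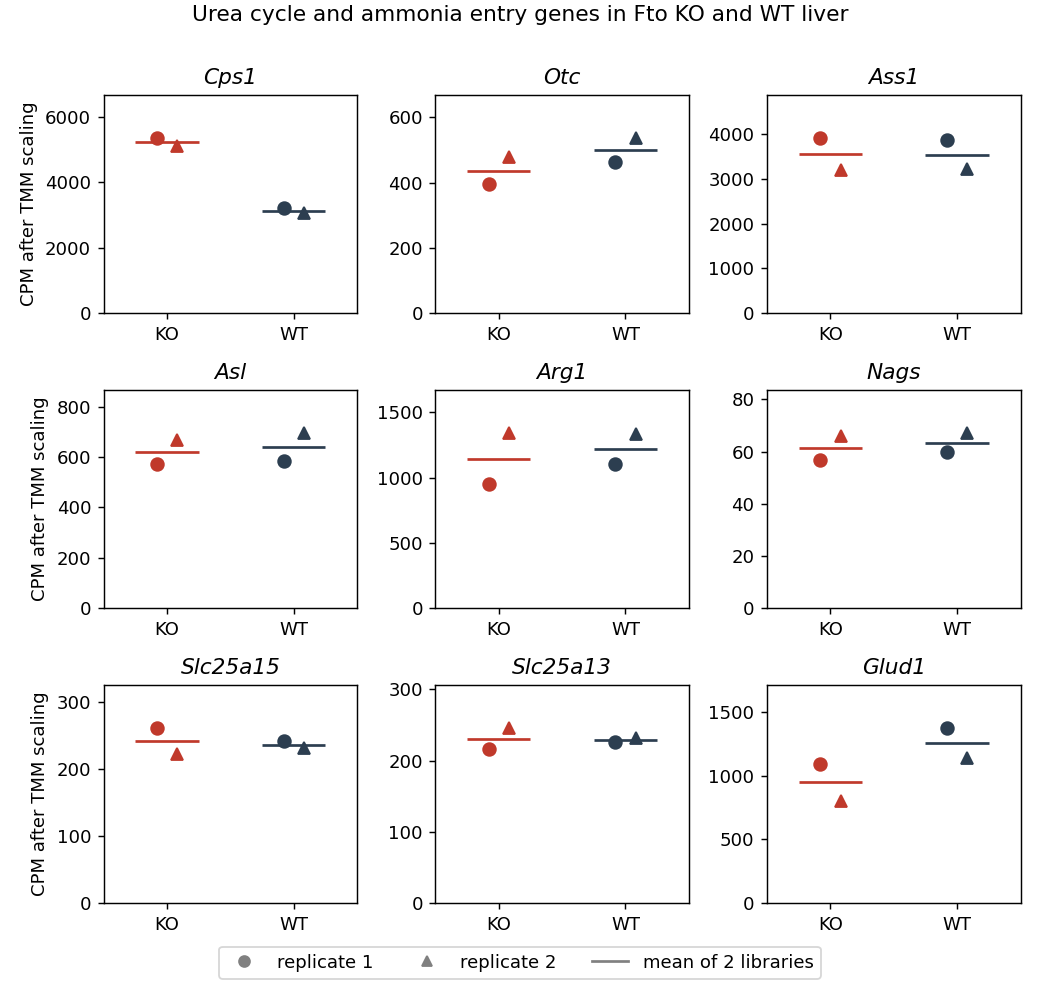
Levels of the 9 genes in each library, in CPM after TMM scaling, on axes that start at 0; circles are replicate 1, triangles replicate 2 and lines the mean of the 2 libraries, with KO left of WT. Cps1 and Glud1 are the genes whose KO and WT libraries do not overlap.

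Nags (ENSMUSG00000048217, chromosome 11, 102145513 to 102149477, plus strand) makes N-acetylglutamate, without which carbamoyl phosphate synthetase is inactive. It was at 56.8 and 65.9 CPM in KO and at 59.8 and 66.9 CPM in WT, and the groups overlapped. Its log2 fold change was -0.05 (SE 0.183, 95% interval -0.47 to 0.38). Reads of an antisense gene, Gm11586, that overlaps Nags cannot be told from its own, as the library kit does not mark strand. Gm11586 was assigned 7 to 22 reads per library, against 2537 to 2638 for Nags. How reads in the overlap were assigned is not stated, so these counts do not limit its part in the Nags level.

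Glud1 (ENSMUSG00000021794, chromosome 14, 34310727 to 34345265, plus strand) encodes glutamate dehydrogenase, which releases ammonia from glutamate. It was at 1094 and 799 CPM in KO and at 1370 and 1140 CPM in WT. Both KO libraries were below both WT libraries, though KO replicate 1 came close to WT replicate 2. Its log2 fold change was -0.41 (SE 0.212, 95% interval -0.90 to 0.08; adjusted p = 0.494, edgeR quasi-likelihood test). Groups that do not overlap, as for Glud1 and Cps1, were seen in 2 of the 9 genes and in 42.0% of all tested genes. A pair of pseudogenes in GENCODE M21 matches Glud1 at 97.6% identity over 656 and 287 bases. Neither is among the 37315 identifiers with deposited counts, so their reads could not be examined.

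Otc (ENSMUSG00000031173, chromosome X, 10252305 to 10321024, plus strand) encodes ornithine transcarbamylase, the mitochondrial enzyme that makes citrulline. It was at 396 and 477 CPM in KO and at 463 and 535 CPM in WT. The KO library with the higher level lay above the WT library with the lower one. The log2 fold change was -0.19 (SE 0.184, 95% interval -0.62 to 0.23; adjusted p = 0.754, edgeR quasi-likelihood test).

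Ass1 (ENSMUSG00000076441, chromosome 2, 31470207 to 31520672, plus strand) encodes argininosuccinate synthetase, which joins citrulline to aspartate in the cytosol. It was at 3908 and 3210 CPM in KO and at 3869 and 3216 CPM in WT, so libraries with the same number were nearly equal. Its log2 fold change was 0.01 (SE 0.193, 95% interval -0.44 to 0.45). The processed pseudogene Gm5424 matches the Ass1 transcript at 99.5% identity over 1240 bases, and it carried 510 and 266 counts in KO and 490 and 313 in WT. Reads that match both cannot be assigned to either with certainty, so the Ass1 level is uncertain.

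Asl (ENSMUSG00000025533, chromosome 5, 130011258 to 130029247, minus strand) encodes argininosuccinate lyase, which splits off fumarate and leaves arginine. It was at 573 and 668 CPM in KO and at 584 and 694 CPM in WT, with overlapping groups. The log2 fold change was -0.04 (SE 0.184, 95% interval -0.47 to 0.39).

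Arg1 (ENSMUSG00000019987, chromosome 10, 24915221 to 24927484, minus strand) encodes the liver arginase, which releases urea. It was at 951 and 1338 CPM in KO and at 1107 and 1335 CPM in WT. The groups overlapped, and KO replicate 1 was the lowest library. The log2 fold change was -0.09 (SE 0.217, 95% interval -0.60 to 0.41). Macrophages can also express Arg1, and the summed level of 13 Kupffer cell (liver macrophage) markers was 434 and 464 CPM in KO and 198 and 302 CPM in WT. The part of these cells in the Arg1 level was not tested.

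The carriers of the inner mitochondrial membrane overlapped between the genotypes. Slc25a15 (ENSMUSG00000031482, chromosome 8, 22375551 to 22398597, minus strand) exchanges ornithine for citrulline, and was at 261 and 223 CPM in KO and at 242 and 231 CPM in WT. Slc25a13 (ENSMUSG00000015112, chromosome 6, 6041218 to 6217173, minus strand) exports the aspartate that the cytosolic steps use, and was at 216 and 245 CPM in KO and at 226 and 232 CPM in WT. Their log2 fold changes were 0.03 (SE 0.175) for Slc25a15 and 0.01 (SE 0.171) for Slc25a13. The KO libraries lay on both sides of the WT libraries for each carrier.

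**Figure D2:**
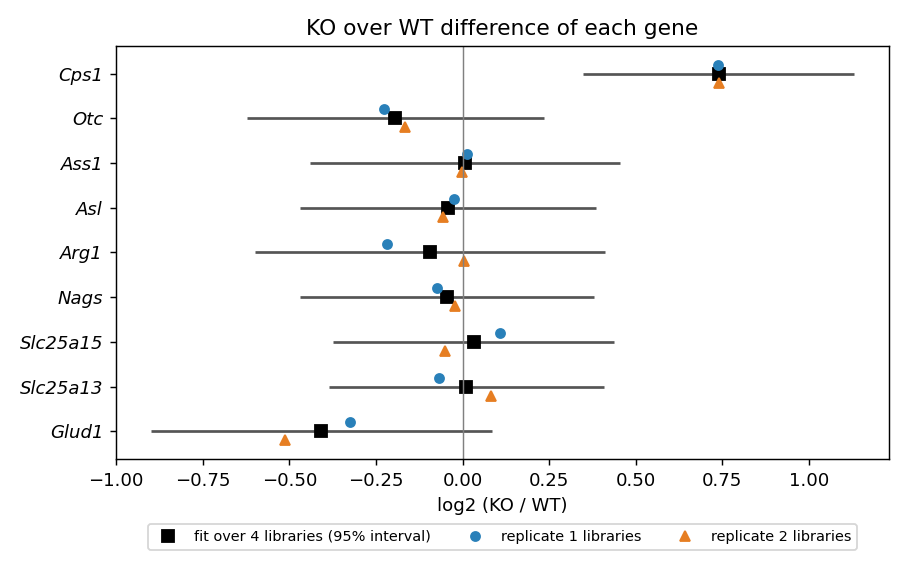
Log2 ratio of KO over WT for each gene: squares with bars are the edgeR estimate with its 95% interval, circles the ratio for replicate number 1 and triangles that for number 2. The interval of Cps1, from 0.35 to 1.13, is the one that leaves out 0.

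The 95% intervals of 8 of the 9 genes lay within a 2-fold difference in either direction, and that of Cps1, whose upper limit was 2.19-fold, did not. For 4 of the 9 genes, Ass1, Arg1, Slc25a15 and Slc25a13, the KO over WT ratio of replicate number 1 had the opposite sign to that of number 2.

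Per unit of length, in transcripts-per-million (TPM) from the summed exon length of each gene, Ass1 was the most abundant of the 9, at 3475 ± 784 TPM in KO and 3373 ± 729 TPM in WT (SD, n = 2 each). Cps1 came next in KO at 2204 ± 268 TPM, and Arg1 was the third at 1191 ± 181 TPM, with no overlap between their libraries. In WT, Cps1 at 1288 ± 157 TPM and Arg1 at 1245 ± 56.2 TPM overlapped, and with the length of the longest transcript in place of the exon sum Arg1 stood above Cps1 there. Glud1 followed at 532 ± 163 TPM in KO and 685 ± 147 TPM in WT. Asl, at 299.6 ± 5.84 TPM in KO and 300.6 ± 10.7 TPM in WT, and Otc, at 239.6 ± 10.2 TPM in KO and 267.8 ± 3.93 TPM in WT, came below it.

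Slc25a13 was at 142 ± 0.0495 TPM in KO and 138 ± 9.75 TPM in WT, and Slc25a15 at 115 and 87.0 TPM in KO and 104 and 88.0 TPM in WT. Nags was the lowest, at 50.4 ± 0.823 TPM in KO and 50.9 ± 0.395 TPM in WT. By summed exon length, no neighbours in this order overlapped within a genotype, apart from Cps1 and Arg1 in WT. Overlap was not examined by the longest transcript, which for Asl is 2413 bases against a summed exon length of 4831.

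The share of Cps1 among the transcripts of the 9 genes was higher in both KO libraries than in both WT libraries. Cps1 made up 26.7% and 26.9% of the summed TPM of the 9 genes in KO, against 17.2% and 17.4% in WT. The sum of the other 8 was 6574 and 5487 TPM in KO and 6742 and 5572 TPM in WT, which overlapped. The ratio of Cps1 to Otc, the next mitochondrial enzyme, was 10.3 and 8.16 in KO and 5.28 and 4.35 in WT. The ratio of Cps1 to Nags, whose product activates it, was 48.0 and 39.5 in KO and 27.4 and 23.3 in WT. The share and the ratios are built on the Cps1 levels given above, so they are no separate evidence of a difference, and they were not tested.

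The 9 genes differed between replicate numbers in a way that both genotypes shared. Arg1, Otc, Asl, Nags and Slc25a13 were higher in replicate 2 than in replicate 1 of both genotypes, and Glud1, Ass1, Slc25a15 and Cps1 were lower. The log2 ratio of number 2 over number 1 was, for Arg1, 0.49 in KO and 0.27 in WT, and for Glud1 it was -0.45 in KO and -0.26 in WT. For Cps1 it was -0.07 in both genotypes. The sign was the same in both genotypes for 9 of the 9 genes, and for 84.1% of the 2670 genes that averaged 50 CPM or more. With the number as a term in the edgeR fit, Cps1 and Glud1 were called, among 19.7% of all genes (10.1% higher and 9.58% lower). What the numbers stand for is not given in the labels.

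**Figure D3:**
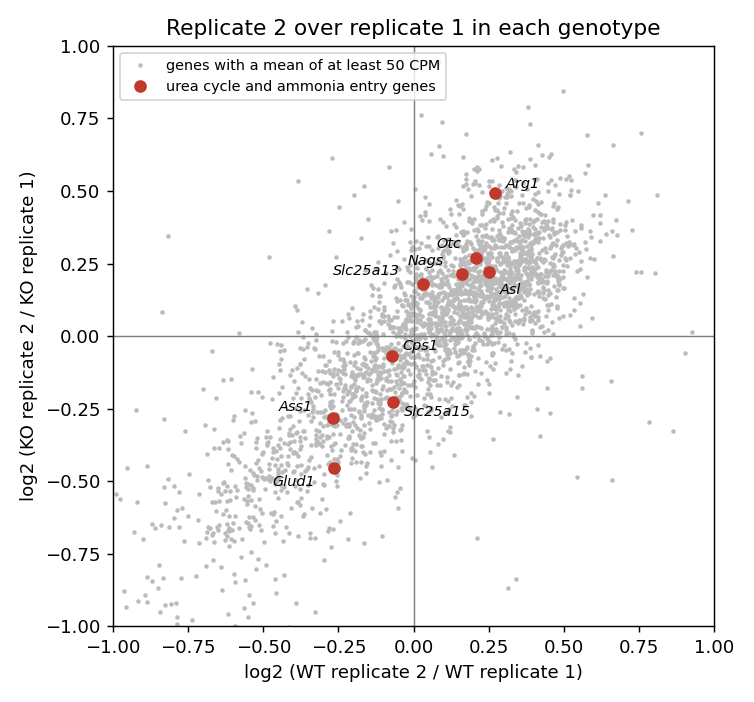
Log2 ratio of replicate 2 over replicate 1 in KO (vertical axis) and in WT (horizontal axis); red points are the 9 genes and grey points the genes that averaged 50 CPM or more, of which 57 fall outside the axes. All 9 genes lie in the quadrants where both genotypes moved the same way.

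Transcript length moved with the replicate number. Among tested protein-coding genes with a longest transcript of 8000 bases or more, replicate 2 stood at a median of -0.46 in KO and -0.49 in WT relative to replicate 1 on the log2 scale, and among those under 1000 bases at 0.18 in KO and 0.35 in WT. The KO over WT median also rose with length, from -0.11 under 1000 bases to 0.11 at 8000 bases or more. It was 0.05 in the class from 4000 to 8000 bases, which holds Cps1 with 5555 bases. In both genotypes 7 of the 9 genes differed between numbers in the direction of the median of their length class. Ass1, with 1696 bases, and Glud1, with 3390, were lower in the libraries numbered 2, while the medians of their classes were higher there. The part of length in the values of single genes, or of the gene lists below, was not tested.

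Genes that feed nitrogen to the cycle held 1 call. Of 21 tested genes of ammonia and nitrogen supply, 1 was called lower by edgeR, none higher, where 1.91% of all tested genes were called. An unadjusted p under 0.05 was found for 2, against 13.0% of all tested genes. The median log2 fold change was 0.05, against 0.01 over all tested genes. The called gene was Gpt2, a mitochondrial alanine transaminase, which fell to 293 and 344 CPM in KO, against 619 and 670 CPM in WT (log2 fold change -1.02, SE 0.177, adjusted p = 0.0347, edgeR). Without KO replicate 1 its adjusted p was 0.0815. DESeq2, which called 4.15% of all genes, called 2 of the list, Gpt2 and Aqp8, a channel for water and ammonia. Aqp8 was at 71.5 and 83.7 CPM in KO and 140 and 192 CPM in WT (adjusted p = 0.0511, edgeR). Gls2, the liver glutaminase that releases ammonia from glutamine around the portal vein, was at 525 and 610 CPM in KO and 444 and 417 CPM in WT (adjusted p = 0.391, edgeR). Sirt5, a mitochondrial deacylase that acts on carbamoyl phosphate synthetase, had a log2 fold change of -0.48 (SE 0.214).

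Of 26 tested genes that use arginine, ornithine and proline, no call was made by edgeR, DESeq2 or limma-voom, and the median was -0.09. An unadjusted p under 0.05 was found for 5, against 13.0% of all tested genes. Oat, the ornithine aminotransferase that takes ornithine out of the cycle, was at 919 and 1010 CPM in KO and 1327 and 1700 CPM in WT (log2 fold change -0.65, SE 0.192, adjusted p = 0.178, edgeR). Its groups did not overlap, which held for 42.0% of all tested genes. Agmat, an agmatinase, had a log2 fold change of -0.58 and Gamt, which makes creatine, one of -0.53. Slc7a7, a carrier of basic amino acids, was at 1.90 and 1.57 CPM in KO and 1.04 and 0.946 CPM in WT.

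Of 42 tested genes on the list of amino acid breakdown, 1 was called higher and none lower by edgeR, where 1.91% of all tested genes were called. An unadjusted p under 0.05 was found for 6, against 13.0% of all tested genes. The median of the list was -0.18, and 32 had a negative log2 fold change. Over all tested genes the median was 0.01, and over those that averaged 1000 CPM or more it was -0.09. The called gene, Asns, makes asparagine rather than breaking an amino acid down. It rose to 8.0 and 6.82 CPM in KO, against 0.590 and 0.683 CPM in WT (log2 fold change 3.54, adjusted p = 0.00165, edgeR). Gldc, of the glycine cleavage system, which releases ammonia, was at 130 and 116 CPM in KO and 238 and 194 CPM in WT (adjusted p = 0.0858, edgeR). DESeq2, which called 4.15% of all genes, called Gldc beside Asns. Aldh7a1, of lysine breakdown, had a log2 fold change of -0.61 and Afmid, of tryptophan breakdown, one of -0.60; neither was called by edgeR or DESeq2.

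Of 20 tested regulators of liver and urea cycle genes, none was called by edgeR or limma-voom and 1 by DESeq2, which called 4.15% of all genes. An unadjusted p under 0.05 was found for 2, against 13.0% of all tested genes, and the median of the list was 0.14. The DESeq2 call was Onecut1, a hepatocyte and bile duct transcription factor, at 12.2 and 5.37 CPM in KO and 2.90 and 1.63 CPM in WT (edgeR adjusted p = 0.0806). Ppargc1a, a coactivator of fasting genes, had a log2 fold change of -0.69 (SE 0.222). Hnf4a, on which urea cycle genes of the liver depend, was at 802 and 821 CPM in KO and 695 and 611 CPM in WT (log2 fold change 0.31, adjusted p = 0.515, edgeR). Foxa1, a pioneer factor of liver genes, had a log2 fold change of 0.36 (SE 0.223), or 0.0842 with KO replicate 1 left out and 0.58 with KO replicate 2 left out.

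**Figure D4:**
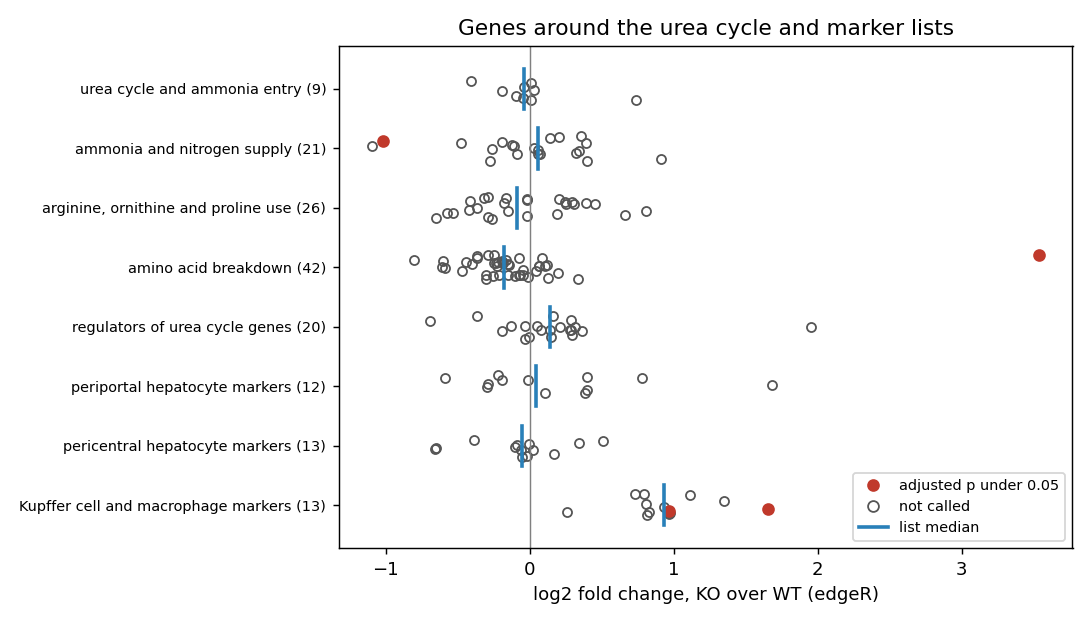
Log2 fold change of KO over WT for the tested genes of the urea cycle, of 4 pathway lists and of 3 marker lists, with the number tested in brackets; each circle is a gene, filled red where the edgeR adjusted p was under 0.05, and blue bars are list medians. Gpt2 and Asns are the called genes of the pathway lists, and the 13 Kupffer cell and macrophage markers all lie right of 0.

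The cycle is richest around the portal vein, so markers of hepatocyte zones are given beside Cps1. None of 12 tested periportal markers was called by edgeR or limma-voom, and 2 were by DESeq2 (Cdh1 and Ctsc), which called 4.15% of all genes. Of the 12, 3 had an unadjusted p under 0.05, against 13.0% of all tested genes. Their median log2 fold change was 0.05, and their summed level was 6956 and 7242 CPM in KO and 6582 and 7242 CPM in WT. The adhesion gene Cdh1 had a log2 fold change of 1.68 (SE 0.432), the protease gene Ctsc 0.78 (SE 0.201) and the serine dehydratase gene Sds -0.59 (SE 0.242).

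For 13 tested pericentral markers edgeR, DESeq2 and limma-voom made 0 calls, and the median was -0.05. Of the 13, 2 had an unadjusted p under 0.05, against 13.0% of all tested genes. The summed level of the 13 markers was 13448 and 13920 CPM in KO and 14157 and 15277 CPM in WT, with no overlap. Among single tested genes, 42.0% had no overlap either. Besides Oat, the smallest p were those of Lect2 (log2 fold change -0.66), Cyp1a2 (0.51) and Rgn (-0.38). Without KO replicate 1 they were 0.13 for Cyp1a2 and -0.21 for Rgn, and without KO replicate 2 they were 0.81 for Cyp1a2 and -0.59 for Rgn. The 12 general hepatocyte markers summed to 95886 and 106430 CPM in KO and to 85396 and 94118 CPM in WT, also with no overlap. The part of these differences in the Cps1 value was not tested.

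Among markers of other cells, 2 of 13 Kupffer cell and macrophage markers were called higher by edgeR, Marco (log2 fold change 1.66, adjusted p = 0.0155) and Csf1r (0.97, adjusted p = 0.0478), and 13 of 13 had a positive value, with a median of 0.93. At an unadjusted p under 0.05 there were 12 of the 13, against 13.0% of all tested genes, and DESeq2 called 5. Over all tested genes edgeR called 1.91% and DESeq2 4.15%. Csf1r was not called without KO replicate 1 (adjusted p = 0.0842), without WT replicate 1 (0.0670) or with library size alone (0.0738). Timd4 (1.35) and Lyz2 (1.11) were not called by edgeR and were among the 5 called by DESeq2. Of 6 tested erythroid markers 1 was called lower, Klf1 (-2.22, adjusted p = 0.0259, edgeR), with a median of -0.84; 5 had an unadjusted p under 0.05, and DESeq2 called 4. The summed level of the list was 187 and 207 CPM in KO and 274 and 310 CPM in WT. No gene was called by edgeR among 12 general hepatocyte (median 0.22), 9 cholangiocyte (0.09), 10 endothelial (0.04), 10 stellate (-0.31), 6 lymphocyte and neutrophil (1.01), 7 adipocyte (-0.47) or 1 tested pancreas acinar marker (0.45). At an unadjusted p under 0.05 these lists held 1, 1, 1, 3, 2, 2 and 1 genes in the same order, and DESeq2 called 1 each of the cholangiocyte and endothelial lists, Onecut1 and Lyve1.

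The genes whose pattern was most like the median pattern of the 9, by Euclidean distance between centred log2 CPM over the 4 libraries among 7330 other genes that averaged 10 CPM or more, were Pqlc2 (distance 0.0309), Flot1 (0.0377) and Igsf5 (0.0398). The median pattern was nearly flat, at centred log2 values of -0.087 and 0.083 in KO and -0.020 and 0.077 in WT. Pqlc2, Flot1 and Igsf5 had KO over WT log2 fold changes of -0.034, -0.0051 and -0.018, so their likeness is that of genes with little difference. Of the 9 genes themselves, Nags (0.0635) and Slc25a13 (0.0656) lay nearest to the median pattern and Cps1 (0.797) and Glud1 (0.642) farthest.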

How the data were processed

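Per the labels' protocols, TRIzol was used for extraction, and polyadenylated RNA went into unstranded TruSeq v2 libraries sequenced as paired ends on a HiSeq3000. The deposited files hold whole-number counts of reads per Ensembl gene. Per the submitters' processing notes, TopHat2 2.1.1, HTSeq 0.6.0 and the build mm10 were used; how reads were assigned (strand, several matches) is not stated there. GENCODE M21, on the same assembly, named 35449 of 37315 identifiers. Every pair of libraries differed by more than sampling noise (chi-square per degree of freedom at least 86.5).

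Genes were filtered with filterByExpr (minimum count 10, minimum total 15), scaled with TMM and tested with the robust quasi-likelihood fit of edgeR 4.0.16 in R 4.3.3, KO over WT, genotype as the only term, two-sided, with Benjamini-Hochberg adjustment over 13836 genes. SE is the log2 fold change over the square root of F, and intervals are 95%. Alternatives were DESeq2 size factors, library size alone, no filter, DESeq2 1.42.0, limma-voom (limma 3.58.1), a term for the replicate number, and each library left out. The 9 genes and the 4 pathway and 11 marker lists were chosen with earlier results of these data known, so counts over them are descriptions. Named are the 9 genes, called genes of each list, up to 4 with the smallest p of each pathway list and of the periportal, pericentral and Kupffer cell lists, and the 3 most alike genes. Positions count from 1.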

Additional observations from a re-analysis of the deposited data

How the results depend on the processing

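The count of called genes among the 9 was 0 by edgeR and stayed 0 in each fit that left out 1 library, with DESeq2 size factors, with library size alone and with limma-voom. It was 1 without the filter on low counts and 1 with DESeq2, Cps1 both times. A term for the replicate number (the replicate block) gave 2, Cps1 higher and Glud1 lower, among 2729 genes called over the whole table (19.7%). Nothing in the labels makes equal numbers a pair, though deviations of same-numbered libraries correlated with r = 0.427 across genes, so the block is given for its counts only. The lowest count of any of the 9 genes in a library was 2537, for Nags. The log2 fold change of Cps1 kept its direction, from 0.69 to 0.78 with 1 library left out, with adjusted p from 0.0872 to 0.353. Those of Glud1 (-0.65 to -0.21) and Otc (-0.34 to -0.06) did too, but the size for Glud1 depended on the library left out, at -0.65 without KO replicate 1, -0.21 without KO replicate 2 and -0.27 without WT replicate 1. Other named genes that moved by over 1.5 times were Onecut1 (1.24 without KO replicate 1), Afmid (-0.39 without KO replicate 2) and, without WT replicate 2, Gamt (-0.32), Lect2 (-0.40), Sds (-0.27), Sirt5 (-0.30) and Rgn (-0.26). Signs were not fixed for genes near 0. With 1 library left out, Arg1 ranged from -0.37 to 0.13, Asl from -0.16 to 0.0810, Ass1 from -0.14 to 0.15, Nags from -0.16 to 0.0594, Slc25a13 from -0.0909 to 0.10 and Slc25a15 from -0.0823 to 0.13. Likewise ranged Pqlc2 (-0.14 to 0.0597), Flot1 (-0.10 to 0.0834) and Igsf5 (-0.10 to 0.0537). Ass1 was -0.00437 with DESeq2 size factors and with DESeq2, and Flot1 0.0106 with library size alone. Over all genes the count of 264 became 829 without the filter, 574 with DESeq2 and 460 to 633 with 1 library left out. The 2 called genes of the pathway lists became 6, 5 and 2 to 5 in the same settings and 36 with the replicate block, and the 3 of the marker lists became 25, 13, 10 to 18 and 43. The causes were not tested.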

Other observations

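The protein-coding gene next to Cps1 on the lower side of chromosome 1, Lancl1 (67000517 to 67038872), was at 21.8 and 24.8 CPM in KO and at 15.2 and 20.3 CPM in WT, a difference of 0.39 on the log2 scale (SE 0.211, adjusted p = 0.513, edgeR). The one on the higher side, Erbb4 (68032186 to 69108059), which encodes a receptor tyrosine kinase, was at 2.12 and 1.499 CPM in KO and at 5.16 and 3.57 CPM in WT, with -1.27 (SE 0.313, adjusted p = 0.108, edgeR). Cps1 lies between them with 0.74, and edgeR called none of the 3, while DESeq2 called Cps1 and Erbb4. Beside Glud1 on chromosome 14, Shld2 (34237033 to 34310493) had a log2 fold change of 0.01 (SE 0.180) and Fam25c (34351881 to 34355433) one of 0.06 (SE 0.193).

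The ratio of the ornithine carrier Slc25a15 to the aspartate and glutamate carrier Slc25a13 in TPM was 0.814 and 0.614 in KO and 0.722 and 0.673 in WT. It was higher in replicate 1 of both genotypes, and the groups overlapped.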
